A study of Rattus norvegicus with 28 samples.

Results

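Gene expression in uninjured spinal cord at the label of 4 weeks was compared with that at 3 weeks, in 8 of the 28 RNA sequencing libraries of a study on the transplantation of neural progenitor cells after spinal cord injury. The 4 libraries labelled spinal_cord_4weeks and the 4 labelled spinal_cord_3weeks were taken by their exposure label, which names no injury, and were read as uninjured. Every library of the series, culture included, is labelled as rat neural progenitor cells. The labels give no strain, age, genotype or agent for any group. What the exposure consisted of and when the count of weeks starts are not stated, nor whether cells were separated from cord tissue. The labels also do not say whether the libraries of a week came from separate animals or cultures, so that p-values measure only the spread between these libraries, which may be technical. In material of this kind fewer cells of a type and less RNA per cell cannot be told apart.

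Neural progenitor cells divide and can give rise to neurons, astrocytes and oligodendrocytes. The spinal cord is rich in myelinated axons, and astrocytes, oligodendrocytes and microglia surround its neurons. Gene symbols and cell type markers could not be assigned, because the deposited table gives Ensembl identifiers without symbols and 0 of its 32545 identifiers matched the reference table used here. The labelled cell type could therefore not be checked against its markers, and genes are described by identifier, level and direction.

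Library totals were 3266098, 4449811, 2605188 and 3902892 counts at week 4, against 6824050, 2886760, 3522226 and 3097031 counts at week 3. The totals overlapped, with an exact permutation p of 0.771 (two-sided). Week 4 libraries nevertheless held more genes with at least 1 count. They detected 17623, 17704, 20098 and 18302 genes, against 17425, 16002, 15643 and 16161 genes in week 3 libraries. Every week 4 library lay above every week 3 library, and the means were 18432 ± 1151 and 16308 ± 776 genes (SD, n = 4 each). The exact permutation p was 0.0286 (two-sided), the smallest that 4 libraries against 4 allow, and 0.0857 after adjustment over the 3 library measures compared, so that the difference did not pass the correction.

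The gap in detected genes was still present when each library was thinned at random to 2605188 counts, the smallest total of the 8. Thinned libraries held 17126, 16625, 20098 and 17383 genes at week 4 and 16005, 15866, 15216 and 15894 genes at week 3, again without overlap. In the thinned counts, 23474 genes had a count in at least 1 of the 8 libraries. Of these, 81 had at least 1 count in all 4 week 4 libraries and 0 counts in all 4 week 3 libraries. The opposite pattern was seen for 14 genes, so that both sets were a small part of the genes detected. Before thinning, no gene with either pattern passed the filter on low counts used for testing. How many of the 81 and the 14 genes passed it was not counted. Week 4 replicate 3, the shallowest library, stood out with the most genes detected and with 1.34% of its counts in genes below that filter, against 0.535% to 0.670% in the other 3 week 4 libraries and 0.368% to 0.553% in the week 3 libraries.

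**Figure D1:**
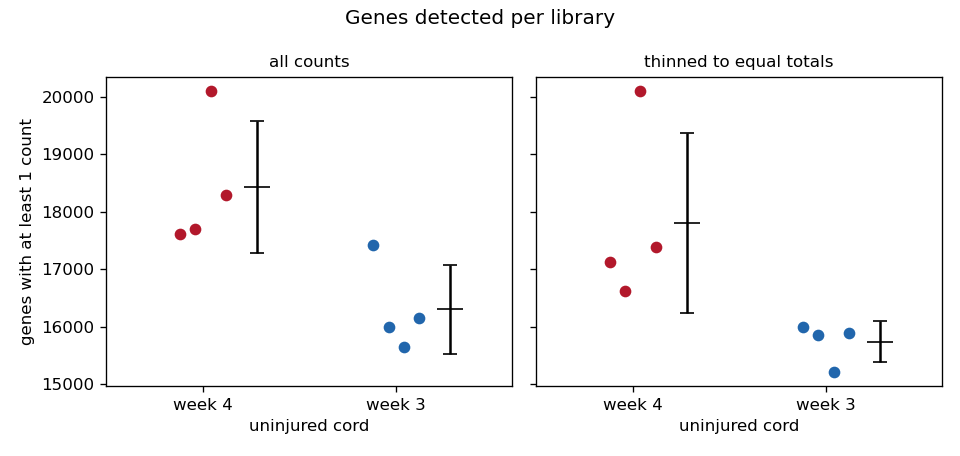
Genes with at least 1 count in each library (vertical axis, which does not start at 0) for week 4 and week 3 of uninjured cord, with all counts on the left and after thinning to equal totals on the right. Points are libraries, and the bar beside them is the mean with its SD. All week 4 points lie above all week 3 points in both panels, and the highest is week 4 replicate 3 with 20098 genes.

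A few genes held much of the counts. The 50 most abundant genes of each library took 31.4%, 30.3%, 30.7% and 34.4% of its counts at week 4, against 27.1%, 23.6%, 32.4% and 23.2% at week 3. The ranges overlapped through week 3 replicate 3, and the exact permutation p was 0.114 (two-sided; 0.171 adjusted over the 3 measures). The single most abundant gene took 9.98% to 13.3% of the counts at week 4 and 6.60% to 10.4% at week 3. The next one took 7.02% to 7.95% at week 4 and 5.51% to 7.58% at week 3. Without week 3 replicate 3 the difference in the share of the 50 genes was 7.10 percentage points, with an exact permutation p of 0.0286, not adjusted over the measures.

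The weeks separated on the first principal component of log2 CPM, the counts of a gene scaled to a common library total, which held 38.1% of the variance. Week 4 libraries lay at 33.3, 10.6, 34.2 and 23.8 on it, and week 3 libraries at -18.6, -33.7, -3.51 and -46.1. Week 3 replicate 3 was the week 3 library nearest to week 4, and it also stood apart on the second component (24.8% of the variance), at -50.6, where the other 7 libraries lay between -10.0 and 33.1. It was the only library of the 8 whose mean Spearman correlation across genes was not higher with its own week, at 0.942, than with the other week, at 0.943. For week 4 replicate 2 the means were 0.963 with its own week and 0.959 with the other. Spearman correlations ranged from 0.946 to 0.976 between week 4 libraries, from 0.936 to 0.981 between week 3 libraries and from 0.908 to 0.967 between the weeks. These are descriptions across genes, which are not independent replicates. The biological coefficient of variation was 21.8% among week 4 libraries and 23.5% among week 3 libraries.

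**Figure D2:**
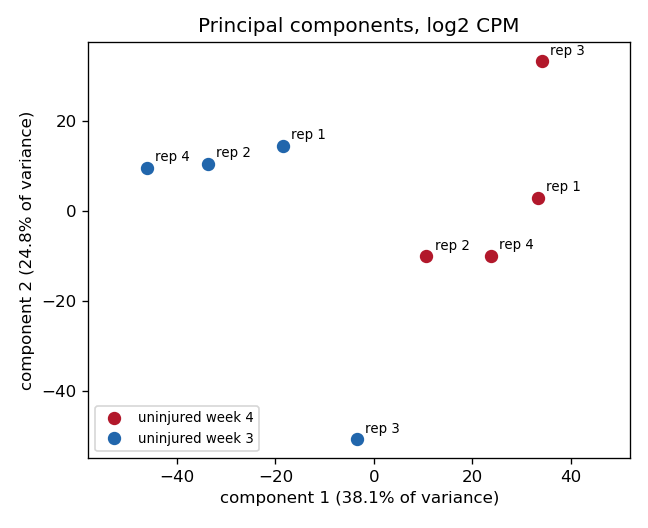
Positions of the 8 uninjured libraries on the first and second principal components of log2 CPM, with the replicate number beside each point. Week 4 libraries lie at positive values of component 1 and week 3 libraries at negative values, with week 3 replicate 3 at -3.51 and alone at the bottom of component 2.

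Set against week 3, uninjured cord at week 4 had few called genes, split nearly evenly by direction. Of 11726 genes that passed the filter on low counts, 435 (3.71%) were called, 225 higher (1.92%) and 210 lower (1.79%) at week 4. A call is a Benjamini-Hochberg adjusted p under 0.05 over the genes tested in edgeR's quasi-likelihood test of these 8 libraries alone. At an unadjusted p under 0.05 there were 2946 genes. The libraries of the weeks did not overlap for 1534 genes (13.1%), 690 (5.88%) with every week 4 library higher and 844 (7.2%) with every week 4 library lower. Among the called genes this was so for 202 of the 225 higher and 202 of the 210 lower ones.

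The number of called genes rested on single libraries, above all in week 3. Without week 3 replicate 4 the same test called 1 gene, and without week 3 replicate 3 it called 2281. Of the 435 genes, 434 were also among the 2281. Leaving out week 4 replicates 1, 3 or 4 gave 64, 44 and 73 genes, and leaving out week 3 replicates 1 or 2 gave 155 and 48. Leaving out week 4 replicate 2, the week 4 library nearest to week 3, gave 509. When all 28 libraries of the series shared 1 estimate of the spread, edgeR called 0 genes between these weeks (1050 at an unadjusted p under 0.05), while DESeq2 on the 8 libraries called 1178. Upper quartile factors shifted the balance of calls to 73.4% higher, from 403 calls, against 51.7% with the TMM factors used here.

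Changes were mostly under 2-fold among the genes called lower and at least 2-fold among those called higher. The median log2 fold change was 1.16 among the 225 genes called higher and -0.86 among the 210 called lower, against -0.004 over all genes tested. Of the genes called higher, 148 rose at least 2-fold and 18 at least 4-fold. Of the genes called lower, 43 fell at least 2-fold and 3 at least 4-fold. Over all 11726 genes tested, 571 changed at least 2-fold in either direction. Sizes among called genes depend on passing the test, and the called sets differ in level. They therefore do not compare rises with falls over all genes. Tested against a fold change of 1.5 rather than against no change, 2 genes passed, both higher. Neither is among the genes printed by identifier below, none of which passed that test.

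Genes called lower were mostly of high level, and genes called higher were of lower level than these. Mean levels over the 8 libraries had a median of 21.9 CPM for the genes called higher (quartiles 11.5 and 43.8) and 66.3 CPM for those called lower (quartiles 32.2 and 108.7), against 27.1 CPM over all genes tested. When the tested genes were ranked by mean level and cut into 5 equal parts, the lowest part held 44 genes called higher and 8 called lower, and the next part 66 and 19. The middle part held 52 called higher and 37 called lower. The fourth part held 42 and 67, and the highest 21 and 79. The median log2 fold change over all genes of a part ran from 0.18 in the lowest to -0.15 in the highest part. The order was the same without week 4 replicate 3, at 0.13 and -0.13, and without week 3 replicate 3, at 0.20 and -0.18. After thinning it was 0.21 and -0.12. The number of genes detected moved with the weeks in the same direction as the median of the lowest part, and its part in the result was not tested.

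**Figure D3:**
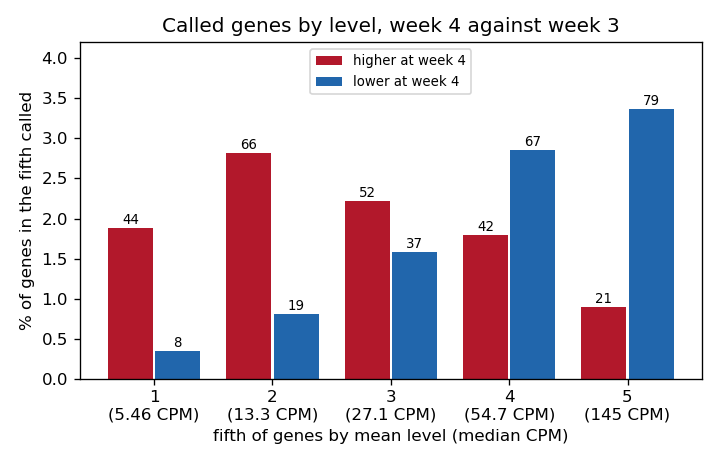
Share of genes called higher and lower at week 4 (vertical axis, percent of the genes in each part) in 5 equal parts of the 11726 tested genes, ordered by mean level from left to right with the median CPM of each part below. Numbers above the bars count genes. Calls of lower genes run from 8 in the lowest part to 79 in the highest, and higher genes outnumber lower ones in the first 3 parts.

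The genes with the largest changes among those past the test, with a mean log2 CPM of at least 2 and no overlap between weeks, are given by identifier. This rule was met by 195 genes called higher and 200 called lower, and 2 of each are printed. Levels in the next sentences are CPM on TMM-scaled totals.

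ENSRNOG00000058277 had 8.07, 3.83, 27.5 and 7.79 CPM in week 4 libraries, against 2.60, 1.69, 0.590 and 1.56 CPM in week 3 libraries. All week 4 libraries lay above week 3, replicate 3 far above the rest, and the means were 11.8 ± 10.7 and 1.61 ± 0.823 CPM (SD, n = 4 each). Its log2 fold change was 2.72 (SE 0.60) and passed the test (edgeR adjusted p = 0.0353). Without week 4 replicate 3 it was 1.90 and no longer passed (edgeR adjusted p = 0.0816). The adjusted p ranged from 4.463e-08 to 0.229 over 20 alternatives, 9 of which did not pass.

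ENSRNOG00000049642 had 14.5, 4.73, 9.81 and 8.06 CPM in week 4 libraries, against 1.16, 0.675, 2.65 and 1.25 CPM in week 3 libraries. The lowest week 4 library lay clear of the highest week 3 library, and the means were 9.28 ± 4.08 and 1.43 ± 0.852 CPM (SD, n = 4 each). Its log2 fold change was 2.66 (SE 0.46; edgeR adjusted p = 0.0136). The call rested on 45, 21, 26 and 30 counts in week 4 libraries and 8, 2, 9 and 4 counts in week 3 libraries. It did not pass without week 3 replicate 2 or without week 3 replicate 4 (edgeR adjusted p = 0.05004 and 0.0594).

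ENSRNOG00000024127 had 2.58, 4.96, 9.43 and 3.76 CPM in week 4 libraries, against 52.2, 20.9, 22.7 and 39.4 CPM in week 3 libraries. The groups did not overlap, and the means were 5.18 ± 2.99 and 33.8 ± 14.8 CPM (SD, n = 4 each). Its log2 fold change was -2.75 (SE 0.38; edgeR adjusted p = 0.0105), the largest fall among the 200 genes that met the rule. It did not pass without week 3 replicate 4 (edgeR adjusted p = 0.0559).

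ENSRNOG00000036960 had 17.1, 17.6, 25.6 and 22.8 CPM in week 4 libraries, against 108.4, 51.6, 42.8 and 82.6 CPM in week 3 libraries. The week 4 libraries were close to one another and the week 3 libraries spread widely, with means of 20.8 ± 4.15 and 71.3 ± 30.0 CPM (SD, n = 4 each). Its log2 fold change was -1.79 (SE 0.27; edgeR adjusted p = 0.0119). It did not pass without week 3 replicate 4 (edgeR adjusted p = 0.0559). All 4 genes kept their direction under every alternative in which they were tested. Choosing genes without overlap between weeks largely fixed that outcome in advance. None of the 4 passed with all 28 libraries in the fit (edgeR adjusted p = 0.206, 0.166, 0.0963 and 0.342 in the order given). All 4 passed with 27 libraries, without injured week 3 replicate 3 (edgeR adjusted p = 0.0262, 0.0436, 0.000697 and 0.01425). They also passed with the 15 libraries of weeks 3 and 4 that leave it out (edgeR adjusted p = 0.0176, 0.01135, 0.00171 and 0.003645).

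The 4 genes differed in where else they were found, given as CPM of each library's total. ENSRNOG00000024127 was close to absent from injured cord at weeks 4 and 3 and from culture. It had 1 count over the 4 injured week 4 libraries, 4 counts over the 4 injured week 3 libraries and 0 counts over the 4 culture libraries. ENSRNOG00000036960 had 3, 13 and 7 counts over the same groups, and ENSRNOG00000049642 had 1, 0 and 0. At week 2, where libraries were far shallower, both of the lower genes were found in injured as well as uninjured cord. ENSRNOG00000024127 averaged 11.8 ± 10.9 CPM in injured cord, from 18 counts, and 29.3 ± 11.9 CPM in uninjured cord, from 29 counts (SD, n = 4 each). ENSRNOG00000036960 averaged 76.7 ± 29.2 CPM in injured cord, from 95 counts, and 42.2 ± 34.0 CPM in uninjured cord, from 50 counts (SD, n = 4 each). ENSRNOG00000058277 had counts in every library of the injured week 4, injured week 3 and culture groups. It averaged 1.72 ± 0.906 CPM in injured week 4, 1.78 ± 0.856 CPM in injured week 3 and 5.86 ± 1.14 CPM in culture (SD, n = 4 each), so that culture lay between uninjured weeks 4 and 3, at 11.7 and 1.64 CPM. At week 2 it averaged 18.65 ± 26.68 CPM in uninjured cord, from 17 counts, with libraries from 0 to 58.01 CPM. In injured cord at week 2 it had 3 counts. ENSRNOG00000049642 had 1 count in uninjured and 0 in injured cord at week 2.

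**Figure D4:**
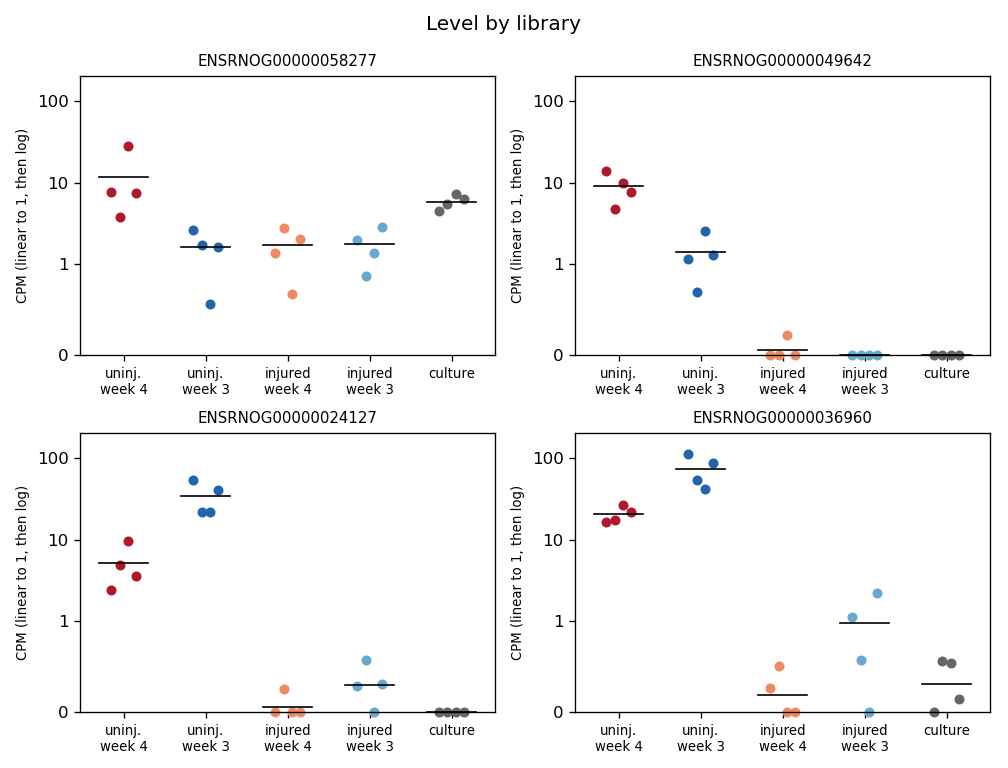
Level of the 4 printed genes in each library of 5 groups, as CPM of the library's total on an axis that is linear up to 1 and logarithmic above. Points are libraries and lines are group means. Uninjured week 4 and week 3 do not overlap in any panel, and 3 of the 4 genes are at or near 0 in the libraries of injured weeks 4 and 3 and of culture. Week 2 is not drawn.

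The change between weeks was then set beside the same change in injured cord, which uses other libraries. One injured week 3 library, replicate 3, was left out, leaving 15 libraries in 1 fit. An earlier analysis of these data had found it to lack many genes, which was not measured again here. Injured cord had far more called genes between these weeks, 2711 higher (20.6%) and 2022 lower (15.4%) at week 4 of 13129 genes tested in edgeR. The week effect of injured cord differed from that of uninjured cord for 4036 genes (30.7%, edgeR interaction test, adjusted p under 0.05). With the incomplete library that count was 2897 of 12923 genes.

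Most genes called lower at week 4 in uninjured cord had a positive change in injured cord. Of those 210 genes, 132 (62.9%) were called higher and 9 (4.29%) lower at week 4 in injured cord, and their median log2 fold change there was 1.18 (quartiles 0.18 and 2.79). Over all 11726 genes tested in uninjured cord, 22.3% were called higher and 13.3% lower in injured cord. The interaction test called 172 of the 210 (81.9%), against 30.1% over all 11726 genes. That test includes the uninjured libraries by which the 210 genes were chosen. A share above that of all genes is therefore partly built in by the choice. Over all genes tested in uninjured cord the median in injured cord was 0.01. A positive change in injured cord was seen for 168 of the 210 (80.0%), against 50.4% over all 11726 genes. Since genes of high level were more often positive, the share is also given within the highest part by level, where it was 71 of 79 (89.9%) for the genes called lower and 61.5% for all genes. With the incomplete library the share was 84.8% of the 210, against 58.5% over all genes. With week 3 replicate 3 of uninjured cord left out, the share among the 1215 genes then called lower was 59.7%. Of these, 367 and 486 lay in the fourth and highest parts by level. Among all genes of those parts in the main fit, 54.6% and 61.5% were positive. The excess over all genes of like level was thus far smaller than for the 210.

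The genes higher at week 4 in uninjured cord had calls in both directions in injured cord. Of those 225 genes, 52 (23.1%) were called higher and 54 (24.0%) lower at week 4 in injured cord, against 22.3% and 13.3% over all 11726 genes. Their median log2 fold change there was -0.01 (quartiles -0.97 and 0.86). A positive change was seen for 49.3%, against 50.4% over all genes. The interaction test called 52% of the 225, against 30.1% over all genes, a share again partly built in by the choice of the genes. Among the printed genes, ENSRNOG00000058277 changed in injured cord by 0.20 log2 units (SE 0.73), which did not pass (edgeR adjusted p = 0.861). The difference in its week effect, injured minus uninjured, was -2.505 log2 units (SE 0.95) and did not pass either (edgeR adjusted p = 0.0509). The other 3 printed genes had too few counts in injured cord for a fold change to be given.

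**Figure D5:**
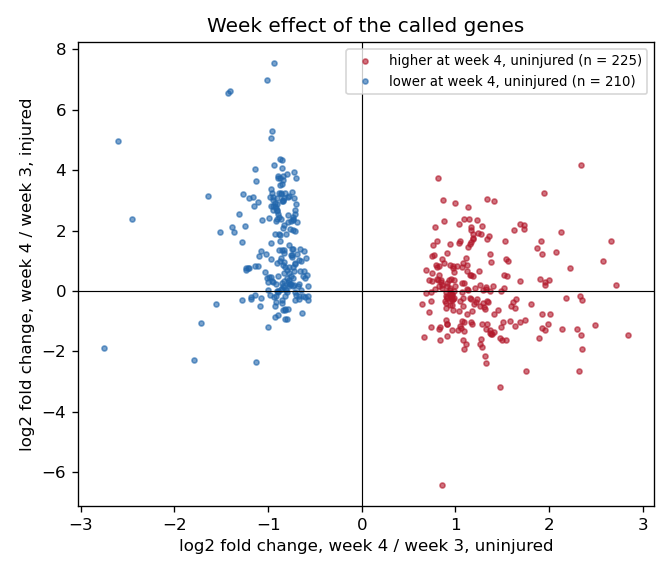
Log2 fold change between week 4 and week 3 in uninjured cord (horizontal axis) and in injured cord (vertical axis) for the 435 genes called in uninjured cord, one point per gene, with lines at 0. The 210 genes called lower in uninjured cord lie mostly above the horizontal line, 168 of them, and the 225 called higher lie on both sides of it.

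By their median, the genes called lower stood near the culture level in injured cord at week 3 and above it at week 4. The 210 genes had a median level of 46.3 CPM at week 4 and 84.2 CPM at week 3 of uninjured cord, 38.8 CPM at week 4 and 19.5 CPM at week 3 of injured cord without its incomplete library, and 19.9 CPM in culture. In a test of injured cord, weeks 3 and 4 together, against culture, 49.0% of these 210 genes were called higher in injured cord and 27 (12.9%) lower. Over all genes tested in that fit the shares were 24.5% higher and 23.7% lower. The 225 genes called higher had a median of 29.0 CPM at week 4 and 13.2 CPM at week 3 of uninjured cord, 15.9 CPM at week 4 and 17.6 CPM at week 3 of injured cord, and 20.7 CPM in culture. Of these, 40 (17.8%) were called higher in injured cord than in culture and 73 (32.4%) lower. In the shallow week 2 libraries the median of the genes called lower was 40.27 CPM in uninjured and 40.25 CPM in injured cord. For the genes called higher it was 25.85 CPM in uninjured and 22.43 CPM in injured cord at week 2. No test was run on these week 2 levels.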

How the data were processed

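The values are raw counts, whole numbers for each gene and library, which the authors deposited as 1 table without normalization. Trizol extraction, DNase treatment, column cleaning and a strand-specific total RNA kit for low inputs are given per the labels' protocols. Named in the submitters' processing notes, with no roles, are STAR 2.5.1, featureCounts 1.5.1, StringTie 1.3.3, Picard, Trim Galore 0.4.1 and FastQC 0.11.5, and the build GRCm38, a mouse build, although the identifiers are rat. The genome aligned to is thus not settled, and the sources used here give no annotation release, strand setting or duplicate handling, so that counts of overlapping genes and of close paralogs are uncertain.

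The 8 libraries were fitted alone with edgeR 4.0.16 in R 4.3.3 (filterByExpr, TMM factors, robust quasi-likelihood F test, Benjamini-Hochberg adjustment, 6 residual degrees of freedom). Standard errors are the log2 fold change divided by the square root of F. Log2 CPM used a prior count of 2. Alternatives used DESeq2 1.42.0, limma 3.58.1, other factors, filters and sets of libraries. The fit was checked on simulated data. No 2 libraries of a week were identical, their chi-square statistics divided by the degrees of freedom being 2.80 to 27.8 over genes with at least 10 counts. Without molecular identifiers, counts may include PCR copies. The comparison and the lists were chosen with earlier results of these data known. The 49 gene lists, the share of mitochondrially encoded genes and the symbol required for naming genes could not be used without gene symbols. Genes printed passed at an adjusted p under 0.05, averaged at least 2 in log2 CPM, had no overlap between weeks and the largest log2 fold change each way, limited to 2 each way.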

Additional observations from a re-analysis of the deposited data

Results flagged for a closer look

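In groups of 4 libraries, 6 of the 36 sets of values had 1 library outlying by Dixon's ratio, and 1.8 such sets would come by chance on average. In 4 of the 6 the other 3 libraries were at 0, which fixes the ratio at 1. They are ENSRNOG00000058277 in injured week 2 replicate 4, at 8.92 CPM from 3 counts, ENSRNOG00000049642 in uninjured week 2 replicate 3, at 2.34 CPM from 1 count, ENSRNOG00000049642 in injured week 4 replicate 3, at 0.224 CPM from 1 count, and ENSRNOG00000024127 in injured week 4 replicate 2, at 0.252 CPM from 1 count.

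In uninjured week 4, ENSRNOG00000058277 stood at 28.02 CPM of the library total in replicate 3, where the other 3 libraries had 3.82 to 7.65 CPM. The same library had the most genes detected of the 8. In uninjured week 3, replicate 1 had a total of 6824050 counts, where the other 3 libraries had 2886760 to 3522226.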

How the results depend on the processing

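The number of called genes, 435, depended on the setting, as did the shares of tested genes called higher (1.92%) and lower (1.79%). DESeq2 called 1178 genes (5.04% higher, 5.01% lower), limma voom with library quality weights 2447 (9.93% and 10.9%), and edgeR with no low count filter 1579 (3.57% and 3%). The log2 library total as a covariate gave 74 genes (0.392% and 0.239%), a test against a fold change of 1.5 gave 2 (0.0171% and 0%), and the 15 libraries of weeks 3 and 4 gave 823 (3.07% and 3.20%). All 28 libraries in edgeR gave 0 (0% each way; 1050 genes at an unadjusted p under 0.05), and 27 libraries, without the incomplete injured one, gave 75 (0.441% and 0.0840%). Leaving out each of the 8 libraries gave 1 to 2281 called genes, 0.00832% to 8.87% higher and 0% to 10.1% lower. Without replicate 3 of both weeks, a pair chosen after the data were seen, 2178 were called (8.49% and 9.89%). Upper quartile factors gave 403 genes (2.52% higher and 0.912% lower). RLE factors, thinning to the smallest total and a CPM filter of 1 in 4 libraries kept each of the 3 numbers of genes within 1.5 times. The cause of the other shifts was not tested.

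The interaction with injury, 4036 genes, stayed within 1.5 times under all 19 alternatives (2897 to 4352; 3492 to 4352 when leaving out single libraries). The difference in genes detected, 2124, was 1569 to 2496 when leaving out single libraries, with an exact permutation p of 0.0286 without a week 3 library and of 0.0571 without a week 4 library. That in total counts, -526520, was -925105 to 387325, positive only without week 3 replicate 1. That in the share of the 50 top genes, 5.15 percentage points, was 4.02 to 7.10. Its exact permutation p was under 0.05 only without week 3 replicate 3. The p-values with a library left out were not adjusted over the 3 measures. The share of genes called lower that had a positive week effect in injured cord, 80.0%, was 50% among the 12 genes called lower with 27 libraries and 53.9% without replicate 3 of both weeks. The difference in median level between genes called lower and higher stayed positive in the 18 alternatives with at least 5 calls each way (0.81 to 2.89 log2 units). ENSRNOG00000058277 did not pass the low count filter after thinning. Leaving out mitochondrially encoded genes was not run for want of gene names. No paired analysis was possible because the libraries of the 2 weeks share no replicate number in the labels.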
